A study of Homo sapiens with 6 samples.

Results

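Kinesins are motor proteins that use ATP to move along microtubules or to take them apart. The genes described here are all protein-coding genes whose symbol is KIF, a number and at most 1 letter, which gave 39 of the 60604 genes in the count table. The cells were MIA PaCa-2, a line long established from a human pancreatic carcinoma and labelled as wild type. RNA was sequenced from 3 libraries of cells given black phosphorus (BP) at 12.5 µg/ml. The other 3 libraries came from cells given the same dose of BP plus 10 mg/ml of Huaier, a preparation of the fungus of that name used in traditional medicine. Both groups carried BP, so the comparison asks what differed when Huaier was added to BP, and it holds no untreated cells and no cells given Huaier alone. The sources used here do not state the treatment time or whether the 3 libraries of 1 treatment were grown as independent cultures. The p-values therefore reflect only how much these libraries vary, and that variation may be technical.

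A kinesin has a motor domain that binds microtubules and a tail that binds cargo or other proteins, and most members walk towards the plus end. One set works in cell division: it builds the spindle, moves chromosomes, trims microtubule ends and completes cytokinesis, and its transcripts are made mainly late in the cell cycle. A second set carries mitochondria, lysosomes, synaptic vesicle precursors and endosomes through the cytoplasm of resting and dividing cells. The members were therefore read as 14 mitotic kinesins, 13 transport kinesins, 6 kinesins of cilia and centrioles, and 6 others. In proliferating tumour lines the mitotic set is abundant, and several of its members are targets of inhibitors.

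Many genes of late cell division share a pair of promoter elements, the cell cycle genes homology region (CHR), bound by the MuvB complexes, and the CCAAT box, bound by NF-Y. The RefSeq promoter table (GRCh38.p14), with 250 bases before and 50 after each start site, held 33 of the 39 kinesin genes. A CHR, searched as TTTGAA or TTCGAA on both strands, was present in 10 of 14 mitotic promoters, in 1 of 11 transport promoters and in 16.4% of all 35093 promoters of this length. A CCAAT was present on either strand in 10 of 14 mitotic promoters, 3 of 11 transport promoters and 34.6% of all. The pair was present in 9 of 14 mitotic promoters, 1 of 11 transport promoters and 6.37% of all. A match describes these letters in this window and is not evidence of binding.

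6 promoters are printed 5′ to 3′ because they belong to the mitotic kinesins that rose (KIF2C, KIF20A, KIF22), to a pair that did not pass the test (KIF11, KIF23), and to the abundant transport kinesin KIF5B. Capitals mark a CHR or a CCAAT box, and a match on the other strand reads TTCAAA or ATTGG.
KIF2C, chr1:44739587-44739886, plus strand: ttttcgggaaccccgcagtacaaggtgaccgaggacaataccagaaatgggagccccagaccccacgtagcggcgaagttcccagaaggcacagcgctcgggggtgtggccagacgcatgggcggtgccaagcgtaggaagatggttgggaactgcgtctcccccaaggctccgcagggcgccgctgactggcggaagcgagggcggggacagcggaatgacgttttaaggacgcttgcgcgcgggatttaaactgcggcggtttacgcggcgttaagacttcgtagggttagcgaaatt
KIF20A, chr5:138178862-138179161, plus strand: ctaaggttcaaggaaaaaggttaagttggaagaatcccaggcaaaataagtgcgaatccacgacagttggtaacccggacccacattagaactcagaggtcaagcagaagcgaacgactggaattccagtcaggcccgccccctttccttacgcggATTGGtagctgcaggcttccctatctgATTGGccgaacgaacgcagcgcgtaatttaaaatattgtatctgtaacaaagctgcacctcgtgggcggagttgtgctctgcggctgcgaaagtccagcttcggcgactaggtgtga
KIF22, chr16:29790501-29790800, plus strand: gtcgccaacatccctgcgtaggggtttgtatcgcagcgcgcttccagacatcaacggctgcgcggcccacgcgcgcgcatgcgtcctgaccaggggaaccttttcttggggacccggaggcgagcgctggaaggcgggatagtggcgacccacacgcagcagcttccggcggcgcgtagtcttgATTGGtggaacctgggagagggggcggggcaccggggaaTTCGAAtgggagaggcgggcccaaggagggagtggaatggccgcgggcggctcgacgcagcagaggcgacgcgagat
KIF11, chr10:92592880-92593179, plus strand: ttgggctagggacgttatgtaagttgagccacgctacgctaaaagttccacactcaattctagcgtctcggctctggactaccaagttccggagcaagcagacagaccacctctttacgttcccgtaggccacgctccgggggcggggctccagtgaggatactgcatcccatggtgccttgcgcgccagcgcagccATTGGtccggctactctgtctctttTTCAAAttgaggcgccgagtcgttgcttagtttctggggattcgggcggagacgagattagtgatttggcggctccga
KIF23, chr15:69414099-69414398, plus strand: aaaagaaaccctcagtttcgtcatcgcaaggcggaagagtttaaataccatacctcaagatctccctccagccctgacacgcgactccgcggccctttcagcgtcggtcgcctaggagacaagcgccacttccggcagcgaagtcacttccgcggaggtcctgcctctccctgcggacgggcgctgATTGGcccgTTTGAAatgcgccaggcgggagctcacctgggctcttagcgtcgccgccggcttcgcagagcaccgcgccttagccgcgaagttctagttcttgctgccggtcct
KIF5B, chr10:32056376-32056675, minus strand: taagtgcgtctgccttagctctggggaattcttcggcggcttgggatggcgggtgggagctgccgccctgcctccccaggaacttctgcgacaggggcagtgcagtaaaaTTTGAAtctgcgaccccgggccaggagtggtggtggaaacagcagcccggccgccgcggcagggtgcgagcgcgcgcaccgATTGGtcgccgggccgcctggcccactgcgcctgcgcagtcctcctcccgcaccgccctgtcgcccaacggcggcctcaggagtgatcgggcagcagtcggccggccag

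Among the 12 tested mitotic genes a CHR was found in 1 of the 3 that rose and in 8 of the 9 that did not pass, and a CCAAT in 2 of 3 and 7 of 9. Other forms of the CHR were not searched, so its counts cover TTTGAA and TTCGAA only. In the forms searched, the KIF2C window held neither motif and the KIF20A window held CCAAT alone. KIF22 carried a CHR at -27 and a CCAAT at -66 from the start site. KIF11, with a CHR at -28 and a CCAAT at -53, and KIF23, with a CHR at -55 and a CCAAT at -64, did not pass the test described next. KIF5B was the 1 transport gene with the pair, its CHR lying at -140 and its CCAAT at -59.

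33 of the 39 members had enough counts to be tested. Adding Huaier to BP was accompanied by higher transcripts of 8 members and lower transcripts of 4, and 21 did not pass the test. The 8 that rose were the mitotic KIF2C, KIF20A and KIF22, the transport motors KIF1A, KIF3C and KIF17, and KIF21B and KIF26A. The 4 that fell were the transport motor KIF13A, the cilium and centriole kinesins KIF24 and KIF27, and KIF26B. The test was edgeR's quasi-likelihood test on counts with Benjamini-Hochberg adjustment over all 15022 genes tested, at an adjusted p under 0.05, and the 12 called members had adjusted p from 0.0014 to 0.045. Over all genes tested, 14.4% were called higher and 15% lower, 29.3% together, beside 36.4% of the tested kinesins, a share not far above the background. The 3 values of one group lay wholly above or below those of the other for 15 of 33 kinesins, a share close to the 46.8% of all genes.

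The 6 members left out of the test were nearly silent. KIF2B, KIF5C, KIF6 and KIF19 had 0 counts in all 6 libraries, where 3 counts correspond to between 0.160 and 0.222 CPM (counts scaled to a common library size). KIF25 had 1 count in all. KIF4B, a near-identical copy of KIF4A whose reads the counting could have split, had 0.17, 0.27 and 0.059 CPM in BP 1, 2 and 3 and 0 counts with Huaier. CPM values are scaled by TMM throughout and are given in the order of libraries 1, 2 and 3.

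Among the libraries, BP+Huaier 3 stood apart from BP+Huaier 1 and 2. Library totals were 15657593 to 17036565 counts. On the leading principal component, which held 72.4% of variance, the scores put the BP libraries between -50.6 and -43.4, BP+Huaier 1 and 2 at 65.1 and 66.0, and BP+Huaier 3 at 11.5. The vimentin gene VIM was at 3142 to 3809 CPM, the epithelial keratins KRT8, KRT18 and KRT19 were present, KRT7 was under 0.25 CPM, and of 7 blood and stroma markers PTPRC, CD3E and DCN had 0 counts. Of the others, COL1A1 rose from 1.37, 1.22 and 1.42 CPM to 6.43, 6.13 and 5.19 (log2 fold change 2.14 ± 0.23, edgeR adjusted p = 0.00089), more than any kinesin that rose, and COL3A1 was at 6.58 to 7.55 CPM and not called. The sum of the 7 was 8.18 to 8.74 CPM with BP and 12.6 to 14.0 with Huaier, and its part in the kinesin values was not tested. KRT18 and KRT19 rose, and the sum of the 5 cell line markers was 5043 to 5216 CPM with BP and 4670 to 6723 with Huaier, lowest in BP+Huaier 3.

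**Figure D1:**
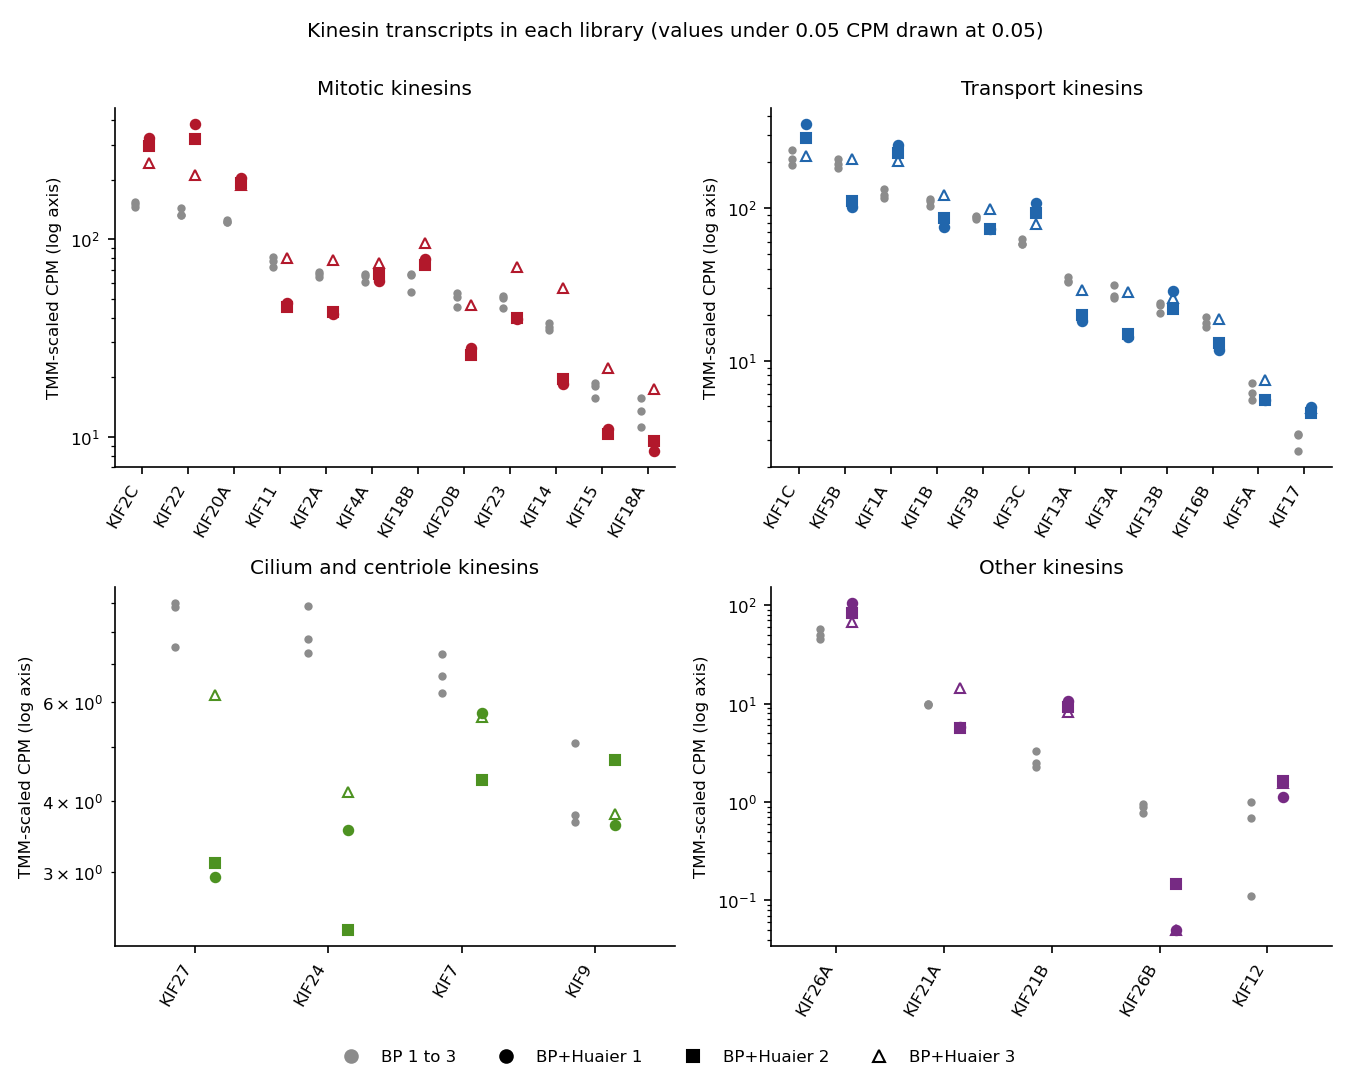
TMM-scaled CPM on a log axis for each of the 33 tested kinesin genes, in 4 panels by role. Grey points are BP 1 to 3, coloured circles and squares BP+Huaier 1 and 2, and open triangles BP+Huaier 3, which lies above the other BP+Huaier libraries for KIF11, KIF14 and KIF5B.

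In TPM, a scale per length of exon that allows genes to be compared, the highest kinesin levels in BP cells were those of KIF2C at 177 ± 5.4 (SD, n = 3), KIF5B at 144 ± 14, KIF20A at 137 ± 4.9 and KIF22 at 136 ± 3.0. KIF1C followed at 107 ± 9.8 and KIF11 at 62.0 ± 4.9. KIF5B, KIF20A and KIF22 lay within their spread of each other. The lowest tested members were KIF12 at 0.85 ± 0.63 and KIF26B at 0.26 ± 0.03. With Huaier, KIF2C stood at 266 ± 11 and KIF22 at 234 ± 35, above KIF20A at 172 ± 25 and KIF5B at 86.1 ± 53. Summed over the 39 genes, the mean was 1279.9 TPM with BP and 1367 with Huaier. TPM values are not scaled by TMM, so they differ between groups otherwise than the CPM values and fold changes. In TMM-scaled CPM the same sum was 1839 with BP and 2338 with Huaier.

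Of the mitotic kinesins, 12 of 14 were tested, and 3 rose, 0 fell and 9 did not pass. The counts of this and the other classes stand beside 14.4% of all tested genes called higher and 15% called lower. KIF2C encodes MCAK, which depolymerises microtubules at centromeres and corrects wrong attachments. KIF2C (ENSG00000142945.13, chr1:44739818-44767767, plus strand) had 155, 146 and 150.2 CPM with BP and 324, 299 and 244 with Huaier. All 3 Huaier libraries lay above all BP libraries. The fitted rise was 1.92-fold, 0.94 ± 0.15 on the log2 scale (SE, n = 3 per group, edgeR adjusted p = 0.0031).

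KIF22 (ENSG00000079616.13, chr16:29790719-29805384, plus strand) encodes Kid, a chromosome-binding motor that pushes chromosome arms away from the poles. It had 133, 132 and 143 CPM with BP and 384, 323 and 211 with Huaier. The groups were apart, and BP+Huaier 3 was the lowest of its group. The rise was 2.24-fold, or 1.17 ± 0.21 on the log2 scale (edgeR adjusted p = 0.0054). 13.0% of its exon bases are shared with a gene model on the other strand that had 0 counts.

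KIF20A (ENSG00000112984.12, chr5:138178719-138187723, plus strand) encodes MKLP2, which carries the chromosomal passenger complex to the central spindle. It had 123, 125 and 122 CPM with BP and 205, 193 and 188 with Huaier, with no overlap. The log2 fold change was 0.66 ± 0.12, a 1.58-fold rise (edgeR adjusted p = 0.0057). KIF2C, KIF20A and KIF22 kept their calls in each of the 16 alternative settings, with a log2 fold change of at least 0.66, 0.40 and 0.85.

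KIF11 encodes Eg5, the motor that separates spindle poles and a target of antimitotic drugs. KIF11 (ENSG00000138160.7, chr10:92574105-92655395, plus strand) had 77.2, 81.0 and 72.5 CPM with BP and 47.4, 45.4 and 80.8 with Huaier. BP+Huaier 1 and 2 lay below all BP libraries and BP+Huaier 3 lay within their range, so the groups overlapped. The log2 fold change was -0.41 ± 0.22 (edgeR adjusted p = 0.18). KIF23 encodes MKLP1, the motor of the centralspindlin complex in cytokinesis. KIF23 (ENSG00000137807.16, chr15:69414246-69448427, plus strand) had 50.3, 51.6 and 44.7 CPM with BP and 39.3, 40.0 and 72.7 with Huaier, a change of 0.05 ± 0.24 on the log2 scale (edgeR adjusted p = 0.88). Its sign was negative in 5 of 16 alternatives, and without BP+Huaier 3 it was called lower at -0.29 (adjusted p = 0.037, up to 0.996 over the alternatives).

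The other 7 tested mitotic members that were not called had log2 fold changes from -0.57 for KIF20B to 0.43 for KIF18B. They include the kinesin-8 motors KIF18A and KIF18B, the chromokinesin KIF4A, the cytokinesis motor KIF14, the Eg5-like KIF15 and the depolymeriser KIF2A. KIF18B was the 1 of them whose groups were apart, with 66.5, 53.9 and 65.6 CPM against 79.8, 74.4 and 95.7 (edgeR adjusted p = 0.063). KIF2A shares 18.7% of its exon bases with DIMT1 on the other strand, and the sources used here do not state whether the counting used strand.

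Of the transport kinesins, 12 of 13 were tested, and 3 rose, 1 fell and 8 did not pass. KIF1A (ENSG00000130294.18, chr2:240713761-240824293, minus strand) carries synaptic vesicle precursors and dense core vesicles in neurons. It had 122, 117 and 134 CPM with BP and 259, 229 and 202 with Huaier, with no overlap. The rise was 1.85-fold, or 0.89 ± 0.14 on the log2 scale (edgeR adjusted p = 0.0035), and it was called in all 16 alternatives. Of 7 neuron markers, STMN2 and GAP43 had 0 counts, SYP was called higher, SYT1 lower, and their sum was 33.7 to 36.6 CPM with BP and 30.9 to 33.3 with Huaier.

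KIF3C (ENSG00000084731.15, chr2:25926598-25982749, minus strand), a heterodimerising subunit of the kinesin-2 type, had 57.8, 58.0 and 62.8 CPM with BP and 108, 93.5 and 79.1 with Huaier. The groups did not overlap, and the log2 fold change was 0.65 ± 0.15 (edgeR adjusted p = 0.013). The kinesin-2 genes KIF3A and KIF3B were not called, with log2 fold changes of -0.53 ± 0.26 and -0.09 ± 0.16. KIFAP3, the cargo-binding subunit of the motor that KIF3A and KIF3B form, was not called either. It had 19.3, 21.1 and 17.5 CPM against 20.9, 19.7 and 18.3, a change of 0.02 ± 0.15 on the log2 scale (edgeR adjusted p = 0.92).

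KIF17 (ENSG00000117245.13, chr1:20664014-20718017, minus strand), a homodimeric kinesin-2, was a low transcript with 3.24, 2.55 and 3.31 CPM against 4.96, 4.51 and 4.90 (log2 fold change 0.66 ± 0.21, edgeR adjusted p = 0.042). KIF13A (ENSG00000137177.20, chr6:17759183-17987635, minus strand) carries endosomes and mannose-6-phosphate receptors. It had 35.3, 33.4 and 32.7 CPM with BP and 18.2, 20.0 and 29.05 with Huaier. The groups were apart, with BP+Huaier 3 nearest to BP. The log2 fold change was -0.59 ± 0.19, a 1.503-fold fall (edgeR adjusted p = 0.045). KIF3C was no longer called when BP 1, BP 2 or BP+Huaier 2 was left out, KIF13A when any 1 library other than BP+Huaier 3 was left out (largest adjusted p over all alternatives 0.165), and KIF17 in 11 of 15 alternatives (largest adjusted p 0.37).

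KIF5B is the ubiquitous heavy chain of conventional kinesin, which moves mitochondria and lysosomes. KIF5B (ENSG00000170759.11, chr10:32009015-32056425, minus strand) had 196, 211 and 183 CPM with BP and 102, 112 and 210 with Huaier. BP+Huaier 1 and 2 lay below all BP libraries, and BP+Huaier 3 lay among them. The log2 fold change was -0.48 ± 0.26 (edgeR adjusted p = 0.18). Its neuronal relatives differed in level: KIF5A had 5.52 to 7.43 CPM over the 6 libraries, and KIF5C had no counts. The other transport members that were not called, KIF1B, KIF1C, KIF13B and KIF16B with KIF3A, KIF3B and KIF5A, had log2 fold changes from -0.53 to 0.43.

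The cilium and centriole kinesins held no riser: of 6 genes, 4 were tested and 2 fell. KIF24 (ENSG00000186638.17, chr9:34252380-34329268, minus strand) restrains the growth of cilia at the centriole. It had 8.90, 7.77 and 7.32 CPM with BP and 3.56, 2.36 and 4.15 with Huaier, a 2.36-fold fall or -1.24 ± 0.24 on the log2 scale (edgeR adjusted p = 0.0066). All 3 values with Huaier lay below those with BP, and the call was kept in all 16 alternatives. KIF27 (ENSG00000165115.15, chr9:83834099-83921465, minus strand), a relative of the Hedgehog pathway kinesin KIF7, had 8.84, 8.99 and 7.50 CPM against 2.93, 3.103 and 6.17 (log2 fold change -1.04 ± 0.29, edgeR adjusted p = 0.027). It was no longer called when any 1 library other than BP+Huaier 3 was left out (largest adjusted p 0.108).

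KIF7 had 7.31, 6.23 and 6.67 CPM against 5.73, 4.36 and 5.65. Its groups were apart, yet the log2 fold change of -0.36 ± 0.19 was not called (edgeR adjusted p = 0.19), and 11.1% of its exon bases are shared with TICRR on the other strand. KIF9, a motor of motile cilia, had a log2 fold change of -0.04 ± 0.23, and 14.8% of its exon bases are shared with an antisense gene. Of 5 ciliated cell markers 3 were tested, FOXJ1 and DNAI1 having too few counts. RSPH1 was called lower, on 25, 33 and 20 counts with BP against 9, 5 and 13 with Huaier. DNAH5 was not called, at -0.69 on the log2 scale. TPPP3 went the other way without a call, with 1.43, 1.33 and 1.59 CPM against 2.17, 2.22 and 2.07 (log2 fold change 0.57). The summed level of the 5 markers was 5.88 to 6.23 CPM with BP and 4.06 to 5.19 with Huaier. Their part in the values of these kinesins was not tested.

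Among the 6 remaining kinesins, 5 were tested, 2 rose and 1 fell. KIF21B (ENSG00000116852.15, chr1:200969390-201023714, minus strand), a motor that also limits microtubule growth, had 2.47, 3.30 and 2.24 CPM with BP and 10.5, 9.16 and 8.30 with Huaier. This was the largest rise of the family, 3.48-fold or 1.80 ± 0.22 on the log2 scale (edgeR adjusted p = 0.0014). The call was kept in all 16 alternatives. KIF21A, its close relative, had 9.72, 9.95 and 9.80 CPM against 5.73, 5.62 and 14.5, with overlapping groups and a change of -0.18 ± 0.34 on the log2 scale (edgeR adjusted p = 0.72).

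KIF26A (ENSG00000066735.15, chr14:104138587-104180894, plus strand), an atypical kinesin known for its part in enteric neuron development, had 50.2, 45.2 and 57.3 CPM against 105, 83.05 and 67.1 (log2 fold change 0.74 ± 0.19, edgeR adjusted p = 0.018). The groups were apart, but KIF26A was no longer called with BP 1, BP 2 or BP+Huaier 2 left out or with scaling by library size alone. Its relative KIF26B went the other way at a very low level. KIF26B (ENSG00000162849.16, chr1:245154985-245709432, plus strand) had 0.77, 0.96 and 0.89 CPM with BP and 0, 0.15 and 0 with Huaier, which is 47 counts against 2. The ratio of BP to BP+Huaier was 19.7, with an exact 95% interval of 5.16 to 167 that covers counting error only (edgeR adjusted p = 0.0068). KIF12 was not called (edgeR adjusted p = 0.12) although its groups were apart, with 0.11, 0.69 and 1.00 CPM against 1.12, 1.63 and 1.56.

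The mitotic and transport classes had nearly the same median change over all 6 libraries, though not in each library taken alone, as given below. The median log2 fold change was -0.07 over the 12 tested mitotic kinesins and -0.05 over the 12 tested transport kinesins, beside -0.02 over all genes tested. The medians of the cilium and centriole class (-0.70, 4 genes) and of the other kinesins (0.74, 5 genes) rest on few genes. Scaling by library size alone moved the median of all genes to -0.28, and those of the mitotic and transport classes to -0.27 and -0.30.

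The summed mitotic level lay above its BP range although most members did not pass the test. The sum over the 14 genes was 831 to 858 CPM with BP and 1149 to 1248 with Huaier. KIF2C, KIF20A and KIF22, singled out after their values were seen, summed to 404 to 416 CPM with BP and to 913, 814 and 642 in BP+Huaier 1, 2 and 3. The other mitotic members summed to 416 to 448 CPM with BP and to 335, 334 and 546. The split therefore differed between libraries: outside KIF2C, KIF20A and KIF22 the class lay below BP in BP+Huaier 1 and 2 and above BP in BP+Huaier 3. The transport sum was 893 to 916 CPM with BP and 960 to 1057 with Huaier, and without KIF1A it was 775 to 782 CPM against 797, 730.5 and 845. The place of the transport sum depended on the scaling: by library size alone, an alternative added after the data were seen, it was 985 to 991 CPM with BP and 897, 822 and 1086 with Huaier, so BP+Huaier 1 and 2 lay below BP. The mitotic sum by library size alone was 899 to 944 CPM with BP and 1060, 984 and 1232 with Huaier, still above BP in all 3.

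BP+Huaier 3 decided much of this pattern. 13 members lay below all BP libraries in BP+Huaier 1 and 2 but not in BP+Huaier 3, and 8 of them lay above all BP libraries there. Of all tested genes, at any GC content, 14.1% showed the first pattern and 6.34% the second, beside 13 and 8 of 33 kinesins. The 13 members had transcript GC contents of 34.2 to 47.6%, below the median of 49.4% over all genes tested. They were the mitotic KIF2A, KIF11, KIF14, KIF15, KIF18A, KIF20B and KIF23, the transport motors KIF1B, KIF3A, KIF3B, KIF5B and KIF16B, and KIF21A. KIF14 shows the contrast, with 37.8, 34.6 and 35.8 CPM with BP and 18.4, 19.5 and 56.9 with Huaier. The median log2 ratio to the BP mean was -0.49, -0.40 and 0.47 in BP+Huaier 1, 2 and 3 for the mitotic class, and -0.22, -0.22 and 0.17 for the transport class.

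Without BP+Huaier 3, 10 kinesins were called higher and 17 lower by the same edgeR test, beside 28.8% and 31% of all genes. Of the mitotic kinesins 4 were then called higher and 7 lower, with a median log2 fold change of -0.44, and of the transport kinesins 4 and 6, with a median of -0.21. KIF11 then stood at -0.72 on the log2 scale (edgeR adjusted p = 6.0e-05) and KIF5B at -0.88 (edgeR adjusted p = 6.7e-06), both called lower. Over the alternatives their adjusted p ran from 6.0e-05 to 0.49 and from 6.7e-06 to 0.47.

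**Figure D2:**
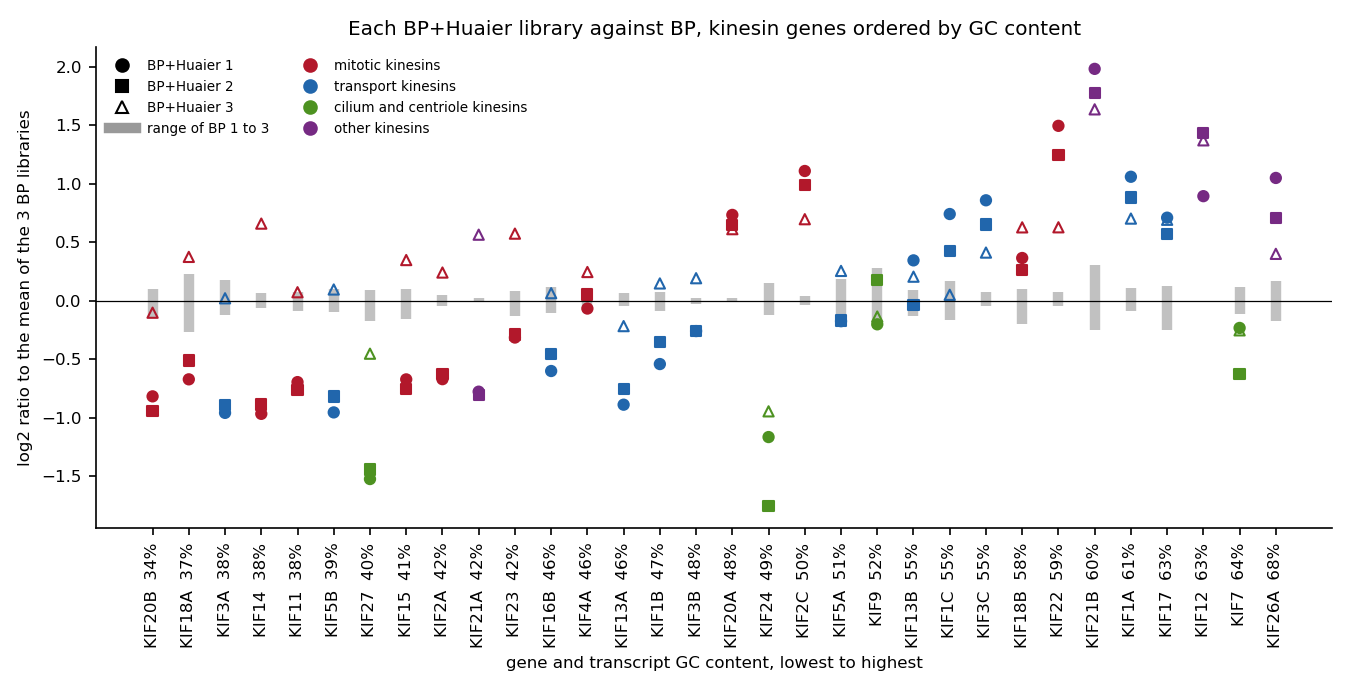
The log2 ratio of each BP+Huaier library to the mean of the 3 BP libraries for 32 tested kinesin genes, ordered by transcript GC content; KIF26B, with 2 counts in all with Huaier, is left out. Grey bars give the range of the BP libraries (not drawn for KIF12), and at the low GC end circles and squares lie below the open triangles of BP+Huaier 3.

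In the fit of all 6 libraries, the direction of the kinesins moved with the GC content of their transcripts. The 8 members that rose had a median GC of 59.3% (48.4 to 68.3%) and the 4 that fell one of 47.9%, beside 49.4% over all genes tested. Of the 17 kinesins below that last value 1 was called higher and 2 lower, with a median log2 fold change of -0.26, and of the 16 at or above it 7 were called higher and 2 lower, with a median of 0.54. Of all tested genes below that value 6.89% were called higher and 18.4% lower, with a median of -0.20, and of those at or above it 22.1% and 11.2%, with a median of 0.20. Across genes, which are not independent replicates and share the 6 libraries, Pearson's r between GC content and log2 fold change was 0.88 over the 12 mitotic and 0.93 over the 12 transport kinesins. It was 0.42 over all 33 members and 0.26 over 14896 genes.

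Against the shared BP mean, r between GC content and log2 ratio was positive in each BP+Huaier library. Over the members with counts it was 0.78, 0.61 and 0.37 in BP+Huaier 1, 2 and 3. Kinesins below the median GC of all tested genes had median log2 ratios of -0.67, -0.75 and 0.19 in these libraries. Those at or above it had 0.74, 0.50 and 0.41, so in BP+Huaier 3 both medians were positive. For the mitotic class r was 0.88, 0.87 and 0.64 in BP+Huaier 1, 2 and 3, and for the transport class it was 0.93, 0.93 and 0.77. Outside these classes the cilium kinesins KIF7, at 64.1% GC, and KIF24, at 49.5%, lay below the middle range of all genes of like GC content.

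**Figure D3:**
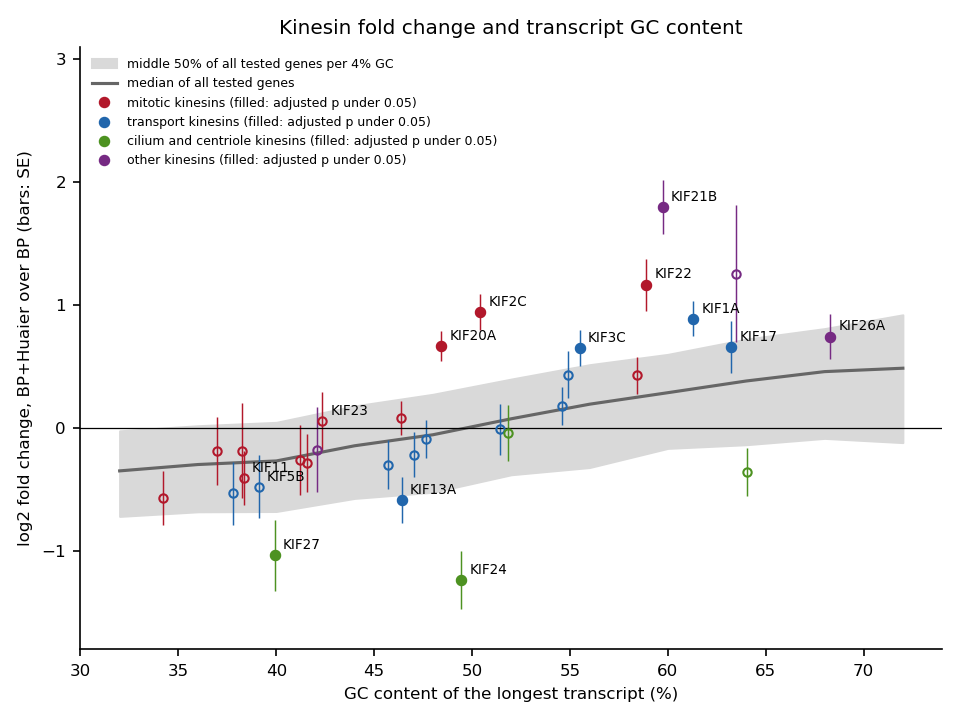
Log2 fold change, with its standard error as a bar, against the GC content of the longest transcript for 32 tested kinesin genes (KIF26B left out), over the median and the middle 50% of all tested genes in steps of 4% GC. Filled points passed the test, and KIF2C, KIF20A, KIF22 and KIF21B lie above the grey band.

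With the trend of counts on GC and transcript length taken out of each library before the fit, 7 kinesins were called higher and 5 lower, beside 19.4% and 19.6% of all genes. KIF2C had a log2 fold change of 0.87, KIF20A one of 0.64, KIF22 one of 0.86, KIF1A one of 0.74 and KIF21B one of 1.70, and all of them stayed called. KIF26A moved from 0.74 to 0.37 and stayed called, KIF17 moved to 0.30 and lost its call, and KIF7, at -0.72, was called lower. The mitotic and transport medians were 0.08 and -0.01. After removal r between GC content and log2 fold change was 0.76 over the mitotic, 0.84 over the transport and 0.25 over all 33 kinesins. The slope per 10 percentage points of GC went from 0.60 to 0.38 for the mitotic class and from 0.59 to 0.38 for the transport class on the log2 scale. The part of GC content in these fold changes was not tested.

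**Figure D4:**
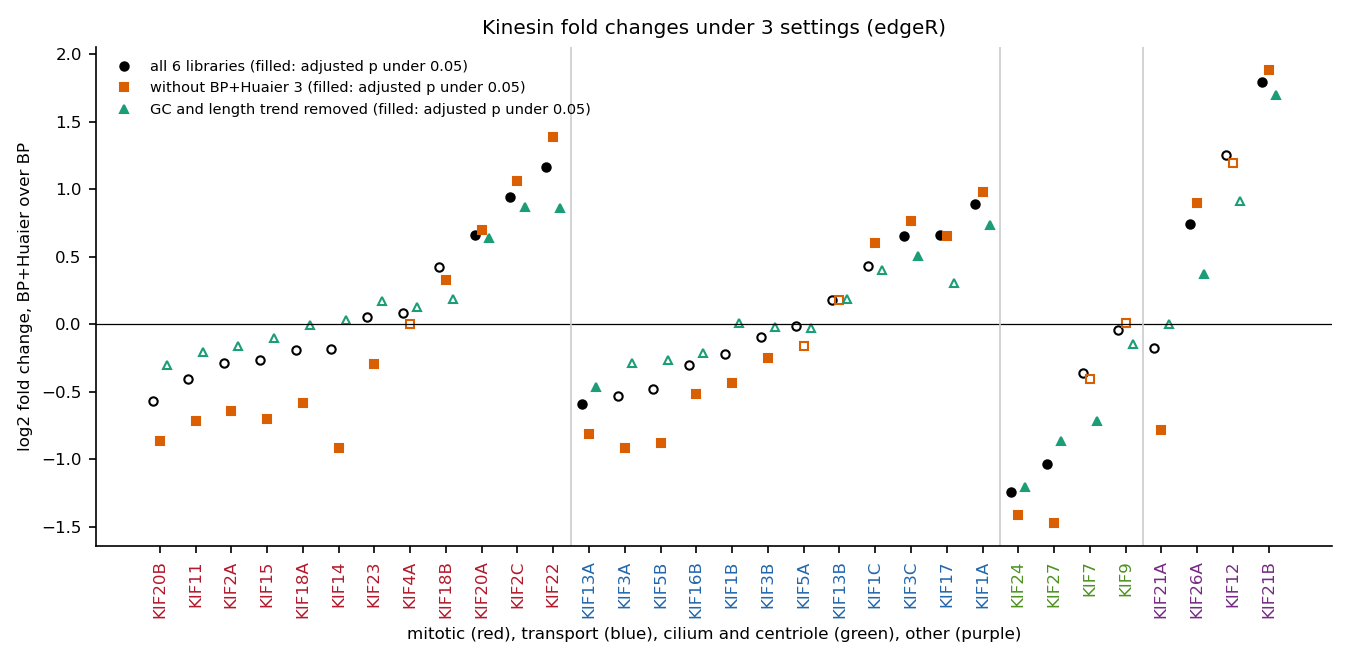
Log2 fold changes of 32 tested kinesin genes (KIF26B left out) with all 6 libraries (circles), without BP+Huaier 3 (squares) and with the GC and length trend removed (triangles), grouped by role. Filled symbols passed an adjusted p under 0.05, and the squares of KIF11 and KIF5B are filled at -0.72 and -0.88.

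Of the 5 kinesins without a KIF number, 3 rose and 1 fell. The counts of this and the following lists stand beside 14.4% of all tested genes called higher and 15% called lower. No list was tested as a set. KIFC1, the minus-end motor that clusters centrosomes, had 74.9, 68.4 and 77.2 CPM with BP and 198, 176 and 151 with Huaier (log2 fold change 1.25 ± 0.15, edgeR adjusted p = 0.0012). KIFC3 and KIFC2 were called higher with log2 fold changes of 1.08 and 0.67, and the centriole kinesin STARD9 lower with -0.98. CENPE, the kinetochore motor that aligns chromosomes, had 29.9, 30.1 and 25.9 CPM against 8.31, 8.27 and 24.7. It was not called (log2 fold change -1.04 ± 0.38, edgeR adjusted p = 0.068), and BP+Huaier 3 was again the library near BP. CENPE was called lower in 7 of 16 alternatives, among them DESeq2, limma-voom and the fit without BP+Huaier 3 (adjusted p from 3.5e-07 to 0.22 over all 16).

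Among 18 light chain and cargo adaptor genes, 17 were tested, 4 rose and 2 fell, with a median log2 fold change of 0.24. Among the risers were the lysosomal kinesin-1 adaptor PLEKHM2 at 0.73, the JNK scaffold MAPK8IP1 at 0.82 and the light chain KLC2 at 0.61. TRAK2, the adaptor that ties mitochondria to KIF5 through Miro, had 36.2, 32.1 and 31.1 CPM with BP and 8.31, 5.84 and 15.2 with Huaier. Its fall of 3.37-fold (log2 fold change -1.75 ± 0.30, edgeR adjusted p = 0.0045) was the largest of this list, while TRAK1 was not called at 0.04 ± 0.13. KLC1 passed narrowly, with a log2 fold change of -0.42 ± 0.14, and its call was lost in 8 of 16 alternatives, including DESeq2 size factors and every 1 library left out other than BP+Huaier 3.

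The 21 partners of mitotic kinesins held 6 risers and 2 that fell, beside 14.4% and 15% of all genes tested. Their median log2 fold change was 0.25. AURKB, the kinase that KIF20A carries, had 83.6, 86.8 and 96.6 CPM against 220.4, 213 and 168 (log2 fold change 1.17 ± 0.15, edgeR adjusted p = 0.0017). Its partners in the passenger complex INCENP and BIRC5 rose by 0.66 and 0.70 on the log2 scale, while CDCA8, the remaining subunit, was not called at 0.30 ± 0.12 (edgeR adjusted p = 0.089). The kinase PLK1 rose by 0.90. TPX2, which recruits KIF11 and KIF15 to the spindle, rose from 267, 274 and 259 CPM to 416, 433 and 417 (0.66 ± 0.12, edgeR adjusted p = 0.0062). RACGAP1, the partner of KIF23 in centralspindlin, was not called at 0.39 ± 0.15 (edgeR adjusted p = 0.071), but was called higher in 4 of 16 alternatives, among them DESeq2, the GC and length trend removed and the fit without BP+Huaier 3 (adjusted p from 0.0034 to 0.58 over all 16). CLASP1, which stabilises microtubule ends, fell by 0.85. PRC1, the bundler that KIF4A follows, was counted at 0.49 to 2.19 CPM and not called, and 61.9% of its exon bases are shared with other gene models.

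Of 28 dynein and dynactin genes, the minus-end motor and its activators, 24 were tested, 4 rose and 0 fell, with a median log2 fold change of 0.15. The risers were the adaptors BICD1 at 1.12 and BICD2 at 0.66 and the dynein regulators NDE1 at 1.03 and NDEL1 at 0.61. The heavy chain DYNC1H1 was not called, at -0.09 ± 0.15. Of 13 proliferation markers 5 rose and 0 fell, with a median log2 fold change of 0.40, namely CDK1, CCNA2, CCNE1, CCNB2 and CCNB1. MKI67, the gene of the Ki-67 antigen, was not called, with 283, 266 and 275 CPM against 197, 170.3 and 344 (log2 fold change -0.21 ± 0.24, edgeR adjusted p = 0.53). Without BP+Huaier 3 it was called lower at -0.57 (adjusted p = 0.00016, up to 0.996 over the alternatives). In MKI67, as in KIF11 and KIF23, BP+Huaier 3 lay on the other side of BP from BP+Huaier 1 and 2 or within its range. The calls of KIFC1, KIFC3, TRAK2, AURKB, PLK1, BICD1, BICD2, NDE1, CDK1 and CCNA2 held in all 16 alternatives. The other called genes named from these lists, KIFC2, STARD9, MAPK8IP1, PLEKHM2, KLC1, KLC2, CLASP1, BIRC5, INCENP, TPX2, NDEL1, CCNE1, CCNB2 and CCNB1, lost their call in 1 to 10 alternatives, among them always that without BP 1.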

How the data were processed

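TRIzol RNA was made into NEBNext Ultra libraries and read as paired ends on a NovaSeq instrument, per the labels' protocols. The submitters' processing notes name GRCh38, featureCounts 1.6.1, HISAT2 2.1.0 and fastp 0.20.0. The deposited values are raw counts per gene. The sources used here do not state the annotation release or the strand and overlap settings. 44 second Y copies of genes and 3 broken lines of ANK2 were left out. Symbols matched 99.8% of IDs. Exon lengths and exon overlaps came from the deposited counts' own annotation columns, and biotypes, transcript lengths and GC content from GENCODE 29.

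Counts were filtered with filterByExpr, scaled by TMM and compared with edgeR 4.0.16 (R 4.3.3), robust quasi-likelihood test, group as the only term. The common biological coefficient of variation was 18.1%. The scripts were tested on simulated data. TPM values were computed from the counts and exon lengths, without TMM scaling. Library pairs varied 3.43 to 8.82 times as much as sampling alone gives within BP, and 16.0 to 69.6 times within BP+Huaier. Each library was counted as 1 replicate, although this variation does not show that the libraries were independent cultures. Alternatives were other scalings, DESeq2 1.42.0, limma-voom (limma 3.58.1), other filters, a replicate block, removal of a GC and length trend, and each library left out.

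The kinesin genes, their classes, the neighbouring lists and the tests were chosen with earlier results of these data known. Values in every library were to be given for each called kinesin and for KIF5B, KIF11, KIF2C, KIF20A and KIF23. From each neighbouring list up to 5 called genes with the largest changes and at least 5 CPM were named, with KIFC1, CENPE, KIFAP3, KLC1, TPX2, RACGAP1, PRC1, MKI67 and DYNC1H1. Any other gene was named after its values were seen. 1 called gene of the cargo adaptor list is not reported here.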

Additional observations from a re-analysis of the deposited data

How the results depend on the processing

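Of the 12 called kinesins, KIF2C, KIF20A, KIF22, KIF1A, KIF21B, KIF24 and KIF26B kept their calls in every alternative that tested them. With each library left out in turn, 5 to 10 kinesins were called higher and 2 to 17 lower. The last was without BP+Huaier 3, where 28.8% of all genes were called higher and 31% lower. At an adjusted p under 0.01, 5 kinesins were higher and 2 lower. Shares of all genes are not given for the other left-out fits, the 0.01 threshold or the replicate block below. Those kinesin counts therefore have no background beside them. Scaling by library size alone moved the transport median to -0.30, as it moved all genes. No called kinesin changed sign in any of these, while 9 of the 21 that were not called did in at least 1: KIF4A, KIF14, KIF18A, KIF23, KIF1B, KIF5A, KIF13B, KIF9 and KIF21A. KIF23 was at -0.17 with library size alone, -0.0018 with limma-voom, -0.027 with genes of at least 5 CPM and -0.0087 with the replicate block, and from -0.29 to 0.22 with a library left out. KIFAP3 was at -0.25 with library size alone, -0.069 with genes of at least 5 CPM, -0.029 with protein-coding genes, and from -0.015 to 0.094 with a library left out. MKI67 was at 0.024 with the GC and length trend removed. DYNC1H1 was at 0.27 with that trend removed, 0.26 with the block added, and from -0.18 to 0.0064 with a library left out. The cause was not tested. With the replicate number as a replicate block, 7 kinesins were higher and 3 lower, KIF13A (adjusted p = 0.067) and KIF17 losing their calls. Deviations from the group means correlated from -0.28 to 0.0085 between same-numbered libraries and from -0.26 to 0.26 between the others. With 3 libraries per group this check cannot decide whether the numbers pair the samples. Depth limits KIF26B, KIF12, KIF17 and the genes without counts.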
